A study of Drosophila melanogaster with 16 samples.

Results

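The ecdysone response was followed through 10 of the 17698 genes counted in the larval central nervous system (CNS) of Drosophila melanogaster. The genes were taken by their FlyBase symbols. They were EcR and usp, which encode both subunits of the ecdysone receptor, the early genes Eip74EF, Eip75B and br, the early-late and late genes Eip78C, Hr3 and Hr4, the competence factor ftz-f1, and Eip93F. All 10 were measured in each of the 16 libraries, and all 10 passed the filter on low counts in every comparison.

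Ecdysone is the steroid hormone whose pulses time the moults and metamorphosis of insects. It binds a heterodimer of the nuclear receptors EcR and Usp, which switches on early genes, and the transcription factors that these encode regulate one another and a later wave of genes. The hormone represses ftz-f1, so that ftz-f1 is transcribed once a pulse has fallen and makes tissues competent for the next. In the CNS of the late larva, ecdysone signalling drives the remodelling and death of larval neurons and the end of neuroblast division. Wandering larvae approach the pulse that starts pupariation, and transcription of these genes is known to change over hours at that stage.

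The study asked how gene expression in the nervous system responds to neuronal mitochondrial stress, caused by excess of the mitochondrial DNA-binding protein TFAM, and how much of that response runs through the transcription factor ATF4. Each of the 4 genotypes had 4 replicates, every replicate was a pool of 20 complete CNSs, and the donors were wandering larvae, late in the third instar, grown at 25 °C. All genotypes carried the pan-neuronal driver nsybGal4. Control larvae had the driver alone (nsybGal4/+), TFAM overexpression larvae had nsybGal4>UAS-TFAM3M, TFAM overexpression with ATF4 RNAi added UAS-ATF4 RNAi to this, and the libraries labelled ATF4 overexpression came from nsybGal4>UAS-ATF4-HA larvae. The driver acts in neurons, whereas RNA came from the whole dissected CNS, glia and neuroblasts included. In such bulk RNA, fewer cells of a type and less RNA per cell cannot be told apart. The labels give no sequencing batch, sex or age in hours. The sample numbers of the libraries labelled ATF4 overexpression are not contiguous with those of the other genotypes. Whether they were sequenced apart is not given, and a batch could not be told apart from that genotype.

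Total counts per library lay between 18215062 and 24778270. Levels are given as CPM, counts scaled to the size of the library, with the SD over n = 4 replicates after each mean. The driven gene TFAM averaged 97.0 ± 29.7 CPM (SD, n = 4) in control libraries, 538 ± 118 CPM under TFAM overexpression and 544 ± 123 CPM when ATF4 RNAi was added. Its log2 fold change under TFAM overexpression was 2.46 with a standard error of 0.25 (edgeR's quasi-likelihood test with Benjamini-Hochberg adjustment, adjusted p = 0.00341). The gene for ATF4, crc, averaged 203 ± 32.6 CPM (SD, n = 4) under TFAM overexpression and 156 ± 6.89 CPM with RNAi, a log2 difference of -0.38 that edgeR's test did not call (adjusted p = 0.339). The libraries labelled ATF4 overexpression averaged 184 ± 5.16 CPM of crc where control averaged 203 ± 17.0 CPM, a log2 difference of -0.15 (edgeR's test, adjusted p = 0.53), so the RNA counts did not show the labelled excess. All 5 neuron markers examined were above 1 CPM in every library. The slope of expression on exon length, computed within each library, ran from 0.202 in control replicate 3 to 0.785 in the libraries labelled ATF4 overexpression (replicate 1), with 0.44 in TFAM overexpression replicate 2 and 0.573 in control replicate 4.

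The receptor genes spanned the narrowest ranges of the group over the 16 libraries. EcR (FBgn0000546) lies on the minus strand of 2R, from 6087873 to 6169087 of the BDGP release 6 (dm6) assembly, and its counts merge the products of 6 annotated transcripts. It had 240, 246, 128 and 173 CPM in control replicates 1 to 4 and 248, 177, 207 and 240 CPM in TFAM overexpression. The values were 237, 212, 198 and 179 CPM with ATF4 RNAi added, and 242, 222, 247 and 216 CPM where the label was ATF4 overexpression. Control replicate 3 was the lowest of the 16, and the 4 genotypes overlapped. Its partner usp (FBgn0003964, X from 2038798 to 2042311, minus strand) encodes the fly's RXR homologue and spanned the narrowest range of all, from 67.1 CPM in control replicate 3 to 98.3 CPM in TFAM overexpression replicate 4, a ratio of 1.47. The exons of usp overlap those of Actn on the same strand over 8.72% of their length and those of CG4313 on the other strand over 6.45%, so reads there are uncertain.

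Among the early genes, br and Eip75B had the highest mean levels per length. The zinc-finger transcription factor gene br (FBgn0283451, X from 1575132 to 1664869, plus strand), whose 16 annotated transcripts were counted as one, had 1310, 1140, 508 and 942 CPM in control and 1280, 784, 1160 and 1290 CPM in TFAM overexpression. It had 1230, 1170, 878 and 1010 CPM with ATF4 RNAi added, and 1520, 1060, 1320 and 1200 CPM where the label was ATF4 overexpression. Control replicate 3 and TFAM overexpression replicate 2 stood lowest, and both are also the libraries with the lowest length slopes.

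Eip75B (FBgn0000568, 3L from 17950953 to 18064696, minus strand) encodes a nuclear receptor that binds haem and counteracts Hr3. It had 588, 556, 215 and 301 CPM in control, where replicates 3 and 4 lay below all 12 libraries of the other genotypes. The other genotypes ran from 352 to 626 CPM (TFAM overexpression), from 383 to 498 CPM (with ATF4 RNAi added) and from 447 to 663 CPM (labelled ATF4 overexpression). Eip74EF (FBgn0000567, 3L from 17558672 to 17619325, minus strand), an ETS-domain transcription factor gene, ran from 145 CPM in control replicate 3 to 325 CPM in TFAM overexpression replicate 4.

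Hr4 and Eip78C were the most variable of the group. Hr4 (FBgn0264562, X from 1941940 to 2007956, plus strand) encodes an orphan nuclear receptor that represses early genes and prepares the expression of ftz-f1. It had 79.0, 63.5, 21.4 and 8.98 CPM in control and 41.6, 36.1, 100 and 76.5 CPM in TFAM overexpression. It had 20.4, 50, 39.9 and 28.8 CPM with ATF4 RNAi added, and 83.2, 37.1, 93.4 and 63.0 CPM where the label was ATF4 overexpression. The highest library thus exceeded the lowest 11.1-fold, every genotype held libraries that differed widely, and control alone spanned most of the range.

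Eip78C (FBgn0004865, 3L from 21226609 to 21266503, plus strand) encodes an orphan nuclear receptor related to that of Eip75B. It had 34.9, 33.0, 17.1 and 9.48 CPM in control and 26.4, 20.0, 44.6 and 30.5 CPM in TFAM overexpression. It had 14.1, 25.1, 24.3 and 18.6 CPM with ATF4 RNAi added, and 34.4, 18.8, 43.4 and 28.5 CPM where the label was ATF4 overexpression. Control replicate 4 was lowest and TFAM overexpression replicate 3 highest, as for Hr4, and the ratio between them was 4.71.

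The genes of the prepupal and late response differed from these. Hr3 (FBgn0000448, 2R from 10203995 to 10237348, minus strand), the activator of ftz-f1, had few assigned reads, with 2.10 to 4.75 CPM over the 16 libraries. The annotated genes CG46321 and CG12912 on the same strand cover 58% and 61.8% of its exon length and had 0 counts in every library. Reads that fall on more than 1 gene are left unassigned by featureCounts at its default settings, so the level of Hr3 per length is uncertain and may be understated. ftz-f1 (FBgn0001078, 3L from 18750607 to 18801309, minus strand) had 19.4, 17.7, 9.38 and 23.8 CPM in control and between 13.4 and 21.1 CPM in the other 12 libraries. Unlike the other 9 genes it was highest in control replicate 4, the library in which Hr4 and Eip78C were lowest. Over 29.4% of its exon length it shares sequence with lncRNA:CR45939, which had 12 counts in all. Eip93F (FBgn0264490, 3R from 21949114 to 22014539, plus strand), which encodes a pipsqueak-family transcription factor of metamorphic cell death and adult fate, had 205, 154, 73.5 and 82.9 CPM in control and 113 to 252 CPM in the other genotypes. Both low control libraries lay below all 12 others.

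**Figure D1:**
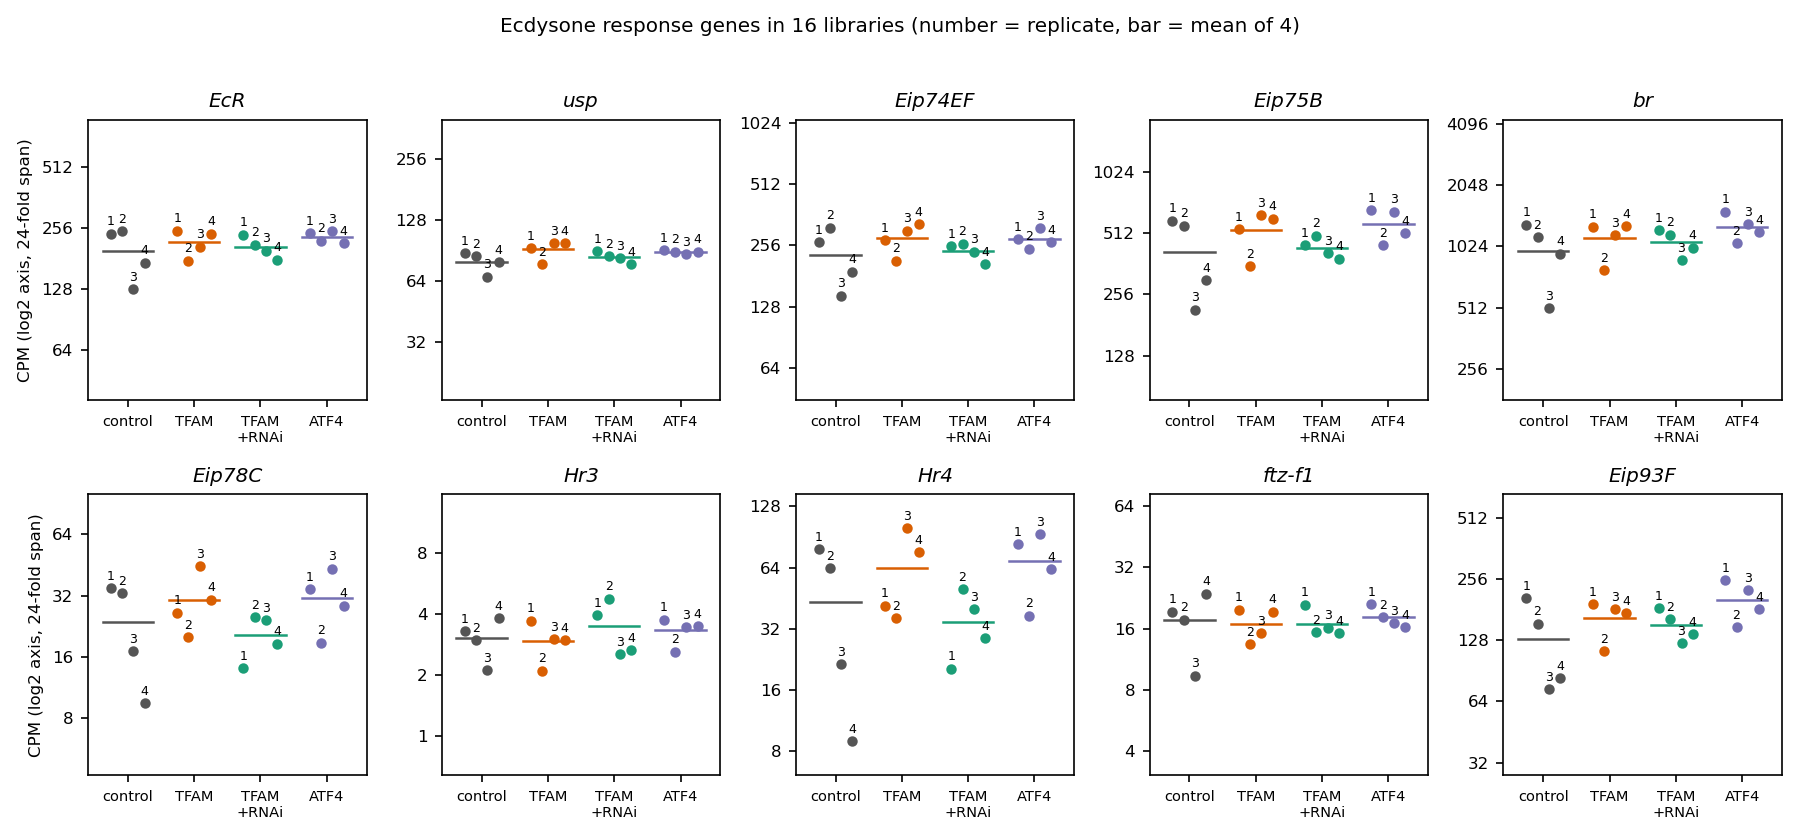
CPM of the 10 genes in the 16 libraries, 1 panel per gene, with a log2 axis of equal span in each panel, a point for each library numbered by replicate and a bar for the mean of 4. The genotypes overlap in every panel; control replicate 3 is lowest for 7 genes and control replicate 4 for Hr4 and Eip78C, which span the largest ranges (11.1-fold and 4.71-fold).

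Levels were compared between genes as FPKM, which divides CPM by the kilobases of exon in the gene, taken as means over the 16 libraries. br led with 55.1 FPKM, followed by Eip75B (36.2), usp (28.3), Eip74EF (27.4), EcR (21.5) and Eip93F (12.8). Eip78C (4.50), Hr4 (3.79), ftz-f1 (2.03) and Hr3 (0.305) were the lowest. The median of all 9731 genes that passed the filter was 15.4 FPKM, so that 5 of the 10 genes lay above it. The place of br above Eip75B, of Eip74EF above EcR, and of Eip93F above Eip78C held in 16 of 16 libraries. Others were less settled, since Eip75B exceeded usp in 14 libraries, usp exceeded Eip74EF in 11, Eip78C exceeded Hr4 in 14 and Hr4 exceeded ftz-f1 in 14.

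The first comparison asked what TFAM overexpression did to these genes. None of the 10 was called misregulated against control in edgeR's quasi-likelihood test, where a call needed an adjusted p under 0.05 together with a change of 1.2-fold or more, and none had an unadjusted p under 0.05. DESeq2 called 0 as well. Of all genes tested, 0.299% were called. The fitted log2 fold change was above 0 for 8 of the 10 genes, with a median of 0.23 against -0.01 over all genes tested. The range ran from -0.07 for ftz-f1 to 0.54 for Hr4. Hr4 averaged 43.2 ± 33.3 CPM (SD, n = 4) without and 63.6 ± 30.2 CPM with TFAM overexpression, a difference smaller than either spread (standard error 0.63, 95% interval -0.99 to 2.08, edgeR's adjusted p = 0.88). Eip78C stood at 23.6 ± 12.4 CPM and 30.4 ± 10.4 CPM (SD, n = 4 each), 0.35 apart on the fitted log2 scale. Those of Eip75B and Eip93F were 0.34 each, and that of br was 0.19. Values above 0 were not particular to the 10 genes, since all 5 receptor cofactors (median 0.14) and 4 of 5 neuron markers (median 0.16) had them too. All tested markers of glia, fat body, muscle and ring gland were below 0.

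The sign of these values rested on control replicates 3 and 4. Without these 2 libraries, an alternative chosen after their values were seen, 7 of the 8 turned negative, including Hr4 (-0.17), Eip78C (-0.16), Eip75B (-0.12) and br (-0.13), and again 0 were called. For these 7 genes both libraries were the lowest of control. Leaving them out therefore had to lower the values, though not to a given sign. Hr4 averaged 71.2 CPM in control replicates 1 and 2, which is 3.33 times its level in replicate 3 and 7.93 times that in replicate 4. For ftz-f1 the ratios were 1.98 and 0.780, and for br 2.42 and 1.31. Replicate 3 was therefore low in both of these, whereas replicate 4 was lower than the first pair only in br.

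The second comparison set the libraries labelled ATF4 overexpression against the same control libraries. Again 0 of the 10 genes were called (0 at an unadjusted p under 0.05, and 0 by DESeq2) while 0.765% of all genes were. All 10 fitted log2 fold changes were above 0, with a median of 0.32 against -0.024 over all genes. The lowest was ftz-f1 (0.04) and the highest were Hr4 (0.67, standard error 0.60, 95% interval -0.79 to 2.13) and Eip93F (0.65, standard error 0.34, 95% interval -0.17 to 1.47), with adjusted p-values of 0.564 and 0.53 from edgeR's test. Eip93F averaged 129 ± 62.1 CPM (SD, n = 4) in control against 202 ± 46.1 CPM in the labelled libraries, and the groups overlapped. Without control replicates 3 and 4, 6 of the 10 turned to 0 or below, Hr4 among them (-0.03). This comparison shares its control libraries with the first. Values above 0 were not particular to the 10 genes. All 5 receptor cofactors (median 0.28), all 5 neural temporal factors tested (0.30) and all 5 neuron markers (0.29) were above 0 as well. All tested markers of fat body, salivary gland, muscle and ring gland were below it. Many of the 10 genes varied together among libraries, so they are not separate observations.

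The third comparison asked whether ATF4 RNAi altered these genes on top of TFAM overexpression. It called 0 of the 10 by either tool, with a background of 0.551% of all genes. Hr4 fell short of the threshold at 63.6 ± 30.2 CPM without and 34.8 ± 12.9 CPM with ATF4 RNAi (SD, n = 4 each). The fitted log2 difference was -0.89 (standard error 0.36, 95% interval -1.77 to 0.00), with an unadjusted p = 0.0352 and an adjusted p = 0.757 in edgeR's test. Eip78C stood at 30.4 ± 10.4 CPM and 20.6 ± 5.17 CPM (SD, n = 4 each). Its fitted log2 difference was -0.58 (standard error 0.26), with an unadjusted p = 0.0491 and an adjusted p = 0.856 in edgeR's test. These 2 were the only members with an unadjusted p under 0.05 in any comparison, where 5.81% of all genes had one, and in both the groups overlapped. Over the group, 9 of the 10 fitted values were below 0 and the median was -0.13, against 0.001 for all genes. Hr3 was the exception at 0.23. Many of the 10 genes varied together among libraries, so their signs are not separate observations.

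TFAM overexpression with ATF4 RNAi was last set against control, where 0 of the 10 were called (0 at an unadjusted p under 0.05, 0 by DESeq2) beside 0.563% of all genes. The median was 0.04 against -0.02, and the values ran from -0.35 for Hr4 to 0.21 for Eip93F. A single test of any difference among the 4 genotypes called 0 of the 10 (0 at an unadjusted p under 0.05, 0 by DESeq2's likelihood ratio test) beside 2.68% of 9731 genes, and the lowest adjusted p of the group was 0.789, for Eip93F. In no pair of genotypes did the libraries of any of the 10 genes separate without overlap. Of all genes, 3.46%, 6.93%, 4.15% and 3.59% did so, in the order of the 4 comparisons above. The intervals bound what could have been seen. They were widest for Hr4, for which a 4-fold rise lay inside the interval both for TFAM overexpression and for the libraries labelled ATF4 overexpression against control. They were narrowest for usp, whose interval ran from -0.13 to 0.51 for TFAM overexpression against control.

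**Figure D2:**
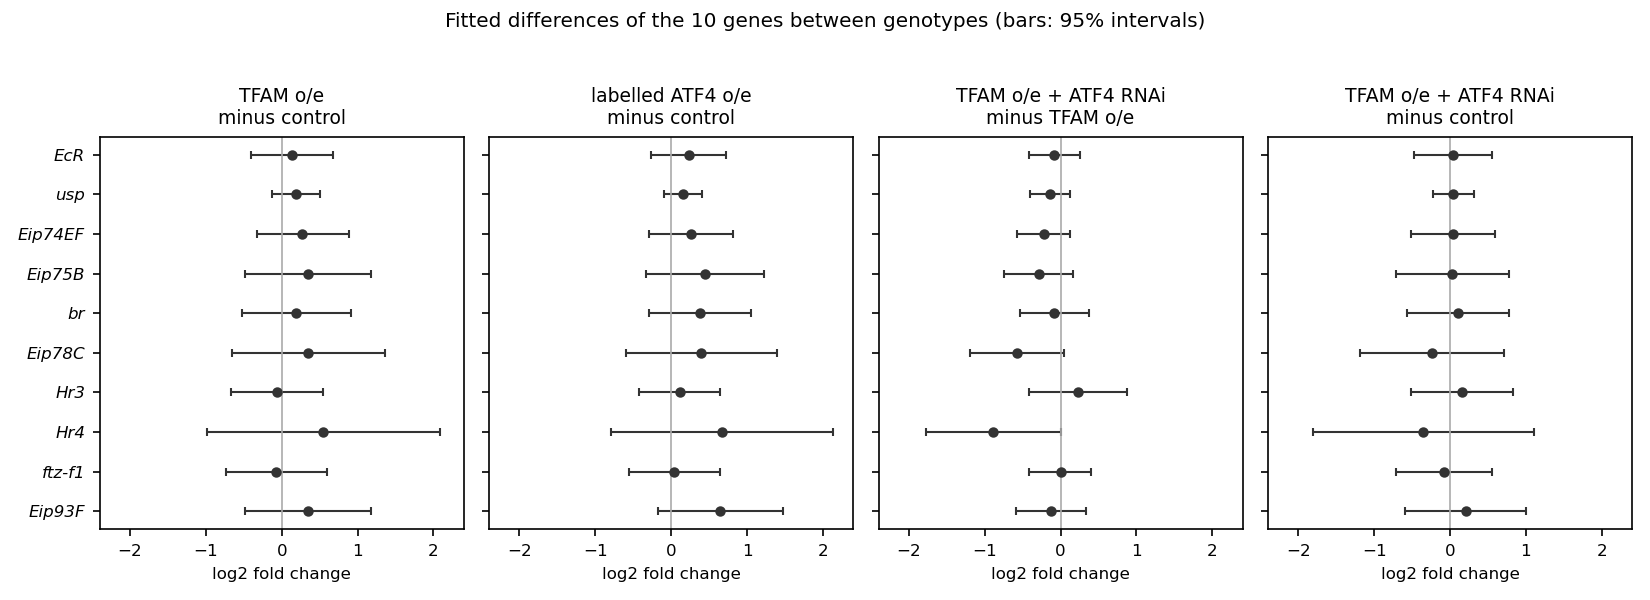
Fitted log2 fold changes of the 10 genes in the 4 comparisons of genotypes, with points for the estimates and bars for 95% intervals on the residual degrees of freedom of 8 libraries. To 2 decimals every interval reaches 0, and those of Hr4 are the widest (-0.99 to 2.08 for TFAM overexpression minus control).

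Most of the variation of these genes lay between libraries of the same genotype. The SD of log2 CPM within genotypes was 0.88 for Hr4, which only 0.514% of the 9731 genes exceeded, and 0.57 for Eip78C, which 2.11% exceeded. It was 0.45 for Eip93F, 0.43 for Eip75B and 0.38 for br. EcR (0.27) stood above the median of all genes, 0.21, and 32.4% of them exceeded it, while usp (0.12) stood below the median. The difference in genotype means held 26.9% of the variance of Hr4, 20.9% of that of Eip78C and 2.47% of that of ftz-f1.

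The first pattern among the genes followed the length slope of the library, a measure computed from the same counts over all genes and therefore sharing depth and composition with them. Over the 16 libraries, log2 CPM of br correlated with the slope at r = 0.97 (Pearson) and rho = 0.92 (Spearman). A two-sided permutation test gave p = 1e-05 for both, the lowest value possible with 1e+05 draws, and adjusted over the 10 genes p = 5e-05 and 1e-04. The draws shuffled libraries across genotypes. By definition the slope is higher where long genes have more counts, so a positive r was built in for genes with long exons. The 10 genes had from 3038 bp (usp) to 20201 bp (br) of exon. The share of all genes with such an r was not computed, so these p-values say nothing particular to the 10 genes. EcR followed at r = 0.95, Eip75B at 0.91, usp at 0.90, Eip74EF at 0.88 and Eip93F at 0.87. When the libraries of extreme slope were left out (control replicate 3, TFAM overexpression replicate 2), r was 0.89 for br, 0.87 for EcR and 0.80 for Eip75B over 14 libraries. ftz-f1 dropped from r = 0.80 to 0.39 and Hr3 from 0.65 to 0.34, so that their relation rested on those 2 libraries. With the slope taken out along with the genotype means, the SD of br went from 0.38 to 0.10 and that of EcR from 0.27 to 0.09, at or below the median of 0.11 for all genes.

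Hr4 and Eip78C made up the second pattern. Their correlations with the slope were lower (r = 0.55 and 0.50) and taking it out left their SDs nearly as large, at 0.81 and 0.54. The 2 genes rose and fell together, with r = 0.98 and rho = 0.99 over 16 libraries (two-sided permutation test, p = 1e-05 for both, adjusted p = 5.62e-05 and 0.000112 over the 45 pairs of the 10 genes). The value was 0.96 without control replicate 4 and the first replicate with ATF4 RNAi added, the libraries farthest from the median of Eip78C, and 0.97 with genotype and slope taken out. They ranked the 4 libraries in the same order in 4 of 4 genotypes. No other gene of the group did so in more than 1. Hr4 and Eip78C lie on different chromosomes and share no exon. The permutations again shuffled libraries across genotypes, and by the same test EcR with br also had p = 1e-05 (Pearson). A gene outside the lists, CG9801, reached r = 0.985 with Eip78C. The share of all gene pairs with such an r was not computed, so these p-values say nothing particular to Hr4 and Eip78C.

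**Figure D3:**
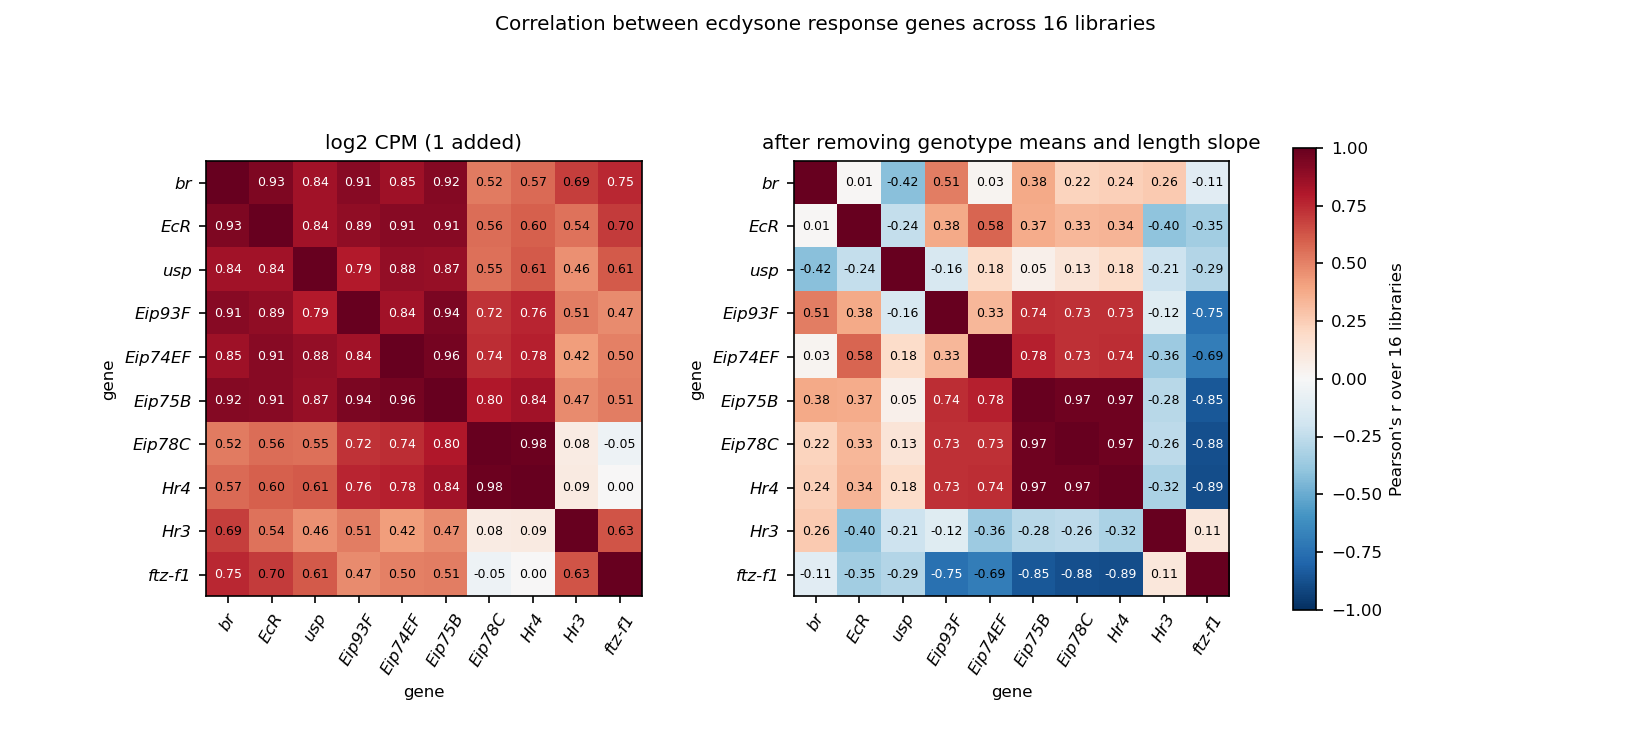
Pearson's r between the 10 genes over 16 libraries, on log2 CPM with 1 added (left) and after genotype means and the length slope were taken out (right), coloured from -1 to 1. Every r in the block of br, EcR, usp, Eip74EF, Eip75B and Eip93F on the left is lower on the right. There br with EcR is 0.01, but Eip74EF with Eip75B is still 0.78 and Eip75B with Eip93F 0.74. On the right, Hr4, Eip78C and Eip75B correlate at 0.97 and ftz-f1 is negative with each of them (-0.89, -0.88 and -0.85).

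Taking out genotype and slope regrouped the other genes. Eip75B then varied with Hr4 at r = 0.97 (0.84 before), and Eip74EF and Eip93F did so at 0.74 and 0.73. ftz-f1 had r = -0.89 with Hr4 after, while the value before was 0.00 and became 0.62 without control replicate 4 and replicate 1 with ATF4 RNAi added, so that it depended on those libraries. These values are given as a description, since all genes share libraries and the slope was fitted to the same counts. The value of ftz-f1 was -0.72 without control replicate 4 and -0.77 without control replicates 3 and 4, and that of Eip75B was 0.94 in both cases. That of Eip93F fell to 0.30 and 0.33, and that of EcR turned from 0.34 to -0.33 and -0.47, so that both rested on control replicate 4. br (0.24) and usp (0.18) stayed near 0.

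Some other ecdysone-induced genes varied with Hr4 and some did not. Of 25 listed, 13 were tested in each comparison, and the 5 described first here were chosen after their values were seen. ImpE1, an ecdysone-inducible gene of imaginal discs, had 314, 258, 93.8 and 65.9 CPM in control, where Hr4 had 79.0, 63.5, 21.4 and 8.98 CPM. The HMG-box factor gene Sox14, a mediator of dendrite pruning, ran from 44.2 CPM in control replicate 4 to 203 CPM in TFAM overexpression replicate 3. Blimp-1, a zinc-finger repressor of ftz-f1, ran from 1.13 CPM in control replicate 4 to 27.1 CPM in replicate 1 of the libraries labelled ATF4 overexpression, a ratio of 23.9. The transporter gene E23 and ImpE1 ranked libraries as Hr4 did in 4 of 4 genotypes, and Sox14, Blimp-1 and vri, a bZIP repressor of the circadian clock, did so in 2. With genotype and slope taken out, r with Hr4 was 0.99 for ImpE1, 0.98 for Sox14, 0.95 for Blimp-1 and E23 and 0.94 for vri. It was -0.71 for MsrA, a methionine sulfoxide reductase gene, and for ImpL2, a secreted insulin-binding protein gene, -0.41 for Cth, -0.02 for Eip63E, 0.19 for Eig71Ee and 0.35 for ImpE2.

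**Figure D4:**
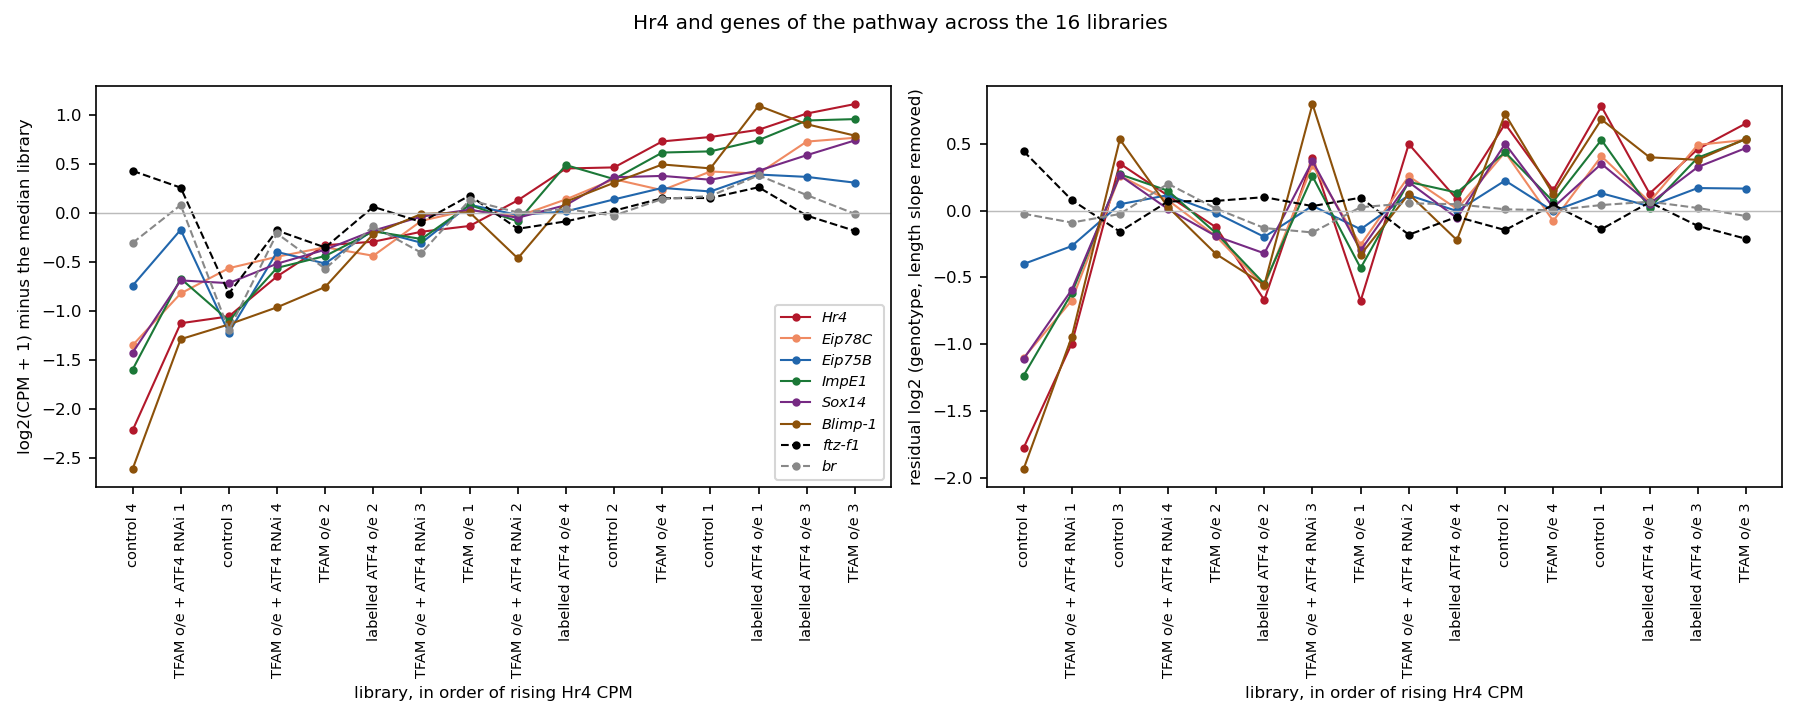
Hr4 and 7 further genes of the pathway in the 16 libraries, ordered by rising Hr4 CPM, as log2(CPM + 1) minus the median library (left) and as residuals with genotype and length slope taken out (right), with lines joining the libraries for reading only. Eip78C, ImpE1, Sox14 and Blimp-1 follow Hr4, br does not, and ftz-f1 (dashed, black) is highest in control replicate 4, where Hr4 is lowest at 8.98 CPM.

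Genes outside the lists that were most like each member over the 16 libraries were found among 9535 tested, by Pearson's r of log2 CPM. CG9801 was nearest to both Hr4 (0.977) and Eip78C (0.985), and the neuropeptide receptor gene sNPF-R was nearest to Eip75B (0.991). CadN, a neuronal cadherin gene, was nearest to br (0.995), Akt to EcR (0.979), p130CAS to usp (0.961), and NAT1 to Eip74EF (0.969). Cht6 was nearest to Eip93F (0.966), sas to ftz-f1 (0.973) and SK, a potassium channel gene, to Hr3 (0.895).

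Marker genes of other tissues were set beside this order, because a dissected CNS can carry pieces of them. The summed level of 5 measured ring gland markers (the ring gland makes ecdysone) was 98.6, 33.4, 134 and 5.12 CPM in control replicates 1 to 4, so that the 2 control libraries with low Hr4 held the highest and the lowest sum. It was 1.74 CPM in replicate 1 of the libraries labelled ATF4 overexpression, where Hr4 had 83.2 CPM. With genotype and slope taken out, r with Hr4 was 0.60 for phtm, 0.63 for dib, 0.59 for sad and 0.55 for spok, all ring gland markers. Without control replicate 4 these values were 0.35, 0.32, 0.34 and 0.33. The 6 muscle markers summed to 174 CPM in control replicate 4 and to between 22.4 and 71.4 CPM elsewhere. The 5 glial markers summed to 1870 and 1780 CPM in control replicates 3 and 4 and to at most 1400 CPM in the other 14 libraries, and the 5 neuron markers were lowest in control replicate 3 (1790 CPM). The glial markers did not move as one in control replicate 3. There alrm (1030 CPM) and wrapper (365 CPM) had their highest values of all libraries, but repo (108 CPM) and moody (39.7 CPM) had their lowest. Control replicate 3 also had the lowest length slope (0.202). Taking out the slope cut the SD within genotypes from 0.45 to 0.11 for the glial alrm, from 0.20 to 0.05 for the glial wrapper and from 0.31 to 0.10 for the neuronal elav. It hardly changed that of the glial repo (0.14 to 0.13) and Gs2 (0.33 to 0.34). How far these sums follow the slope was not tested. Fat body markers (6 of 6 above 1 CPM in every library) summed to 131 to 509 CPM in control and 59.9 to 113 CPM in TFAM overexpression, while none of 6 salivary gland markers was above 1 CPM in every library and their sum ran from 0.601 to 197 CPM. Neuroblast markers summed to between 441 and 544 CPM and hemocyte markers to between 34.7 and 86.6 CPM. The part of these cells, or of the age of the larvae, in the levels of Hr4 and Eip78C was not tested.

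Among the other lists, the nuclear receptors outside the group gave 0 called of 13 tested in each comparison, by edgeR's quasi-likelihood test. Hr38, an NR4A-family receptor that responds to neuronal activity and to ecdysteroids, had 2.67, 2.46, 1.83 and 4.31 CPM in control and 1.46, 1.6, 1.27 and 1.59 CPM in TFAM overexpression. It had 3.57, 2.65, 1.78 and 3.00 CPM with ATF4 RNAi added, and 1.74, 1.08, 1.70 and 1.22 CPM where the label was ATF4 overexpression. Its groups did not overlap in 3 comparisons, but it was not called. The log2 fold change was -0.94 for TFAM overexpression against control (adjusted p = 0.485), -0.98 for the libraries labelled ATF4 overexpression (adjusted p = 0.321) and 0.89 when ATF4 RNAi was added (adjusted p = 0.258, all from edgeR's test). The next largest values in that list were 0.32 for kni and 0.35 for dsf in the comparisons with control, and -0.33 for Hr39 when ATF4 RNAi was added. knrl had 0.26 in TFAM overexpression with ATF4 RNAi against control.

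The other ecdysone-induced genes gave 0 called of 13 in every comparison. When ATF4 RNAi was added to TFAM overexpression, 11 of the 13 were lower and 7 had an unadjusted p under 0.05 (5.81% of all genes did), with a median log2 fold change of -0.57. Several of these genes varied together among libraries, as described above, so the 7 are not separate observations. vri had 220, 203, 325 and 284 CPM without and 136, 190, 199 and 138 CPM with ATF4 RNAi. The groups did not overlap, and the log2 fold change was -0.65 (adjusted p = 0.329 from edgeR's test). Eip63F-1, a calcium-binding protein gene, was -0.60 (adjusted p = 0.305 from edgeR's test) and also did not overlap, and Blimp-1 was -0.94 (adjusted p = 0.768 from edgeR's test). Eig71Ee ran from 0.0414 to 40.8 CPM and was highest in TFAM overexpression replicate 3, which also had the highest salivary gland sum (197 CPM). Its relation to those sums was not tested. The log2 fold change of Eig71Ee in TFAM overexpression, 3.31, was not past the threshold (adjusted p = 0.85 from edgeR's test). ImpE2 had 0.80 in that comparison. Blimp-1 had 0.95 and Eig71Ee -1.35 in the libraries labelled ATF4 overexpression against control, and Eip63F-1 had -0.61 and Eig71Ee 2.28 in TFAM overexpression with ATF4 RNAi against control, none of them called.

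Among 11 measured genes of hormone synthesis and uptake, of which 10 were tested in each comparison, 1 was called. Cyp6t3, a cytochrome P450 gene linked to ecdysone synthesis in the ring gland, had 1.38, 0.820, 0.236 and 0.816 CPM in control and 17.1, 12, 15 and 15.5 CPM in TFAM overexpression. In edgeR's test the log2 fold change was 4.14, with a standard error of 0.39 and an adjusted p = 0.00262. The level was 17.5, 16.6, 13.4 and 14 CPM with ATF4 RNAi added (log2 fold change 4.17 against control, adjusted p = 0.00125), but did not exceed 0.976 CPM where the label was ATF4 overexpression. The levels of Cyp6t3 separated by genotype, while phtm, sad and spok, which encode enzymes of ecdysone synthesis in the ring gland, are markers of that gland and were not called. The log2 fold changes were -2.17 for phtm and -1.89 for sad in the libraries labelled ATF4 overexpression against control, and -1.74 for spok when ATF4 RNAi was added. Receptor cofactors, juvenile hormone response genes, neural temporal factors, the activin pathway and programmed cell death genes, 24 tested in all, gave 0 called in any comparison by edgeR's test and 0 with an unadjusted p under 0.05, with log2 fold changes between -0.24 and 0.43.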

How the data were processed

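RNA was sequenced from pools of larval CNSs, 4 replicates for each of 4 genotypes. The authors made polyA libraries with a stranded kit, mapped 75-bp single-end reads to dm6 with Bowtie2 2.3.4.2 and counted them with featureCounts 1.6.3 at default settings. The deposited values are raw read counts for 17698 genes, without normalization. The annotation and strand setting of the counting are not given in the sources used here.

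Identifiers were matched to BDGP release 6 (Ensembl release 115), where 138 had no entry. From the counts, CPM were computed with TMM factors (16 libraries together), and FPKM with the summed exon length. At these depths 3 counts correspond to 0.119 to 0.177 CPM, a floor for counting error. Genotypes were compared in pairs by edgeR 4.0.16 in R 4.3.3 (TMM, filterByExpr, quasi-likelihood F test on the 8 libraries of the pair, Benjamini-Hochberg over all genes tested), and jointly by an F test. Calls needed an adjusted p under 0.05 together with a change of 1.2-fold or more, both thresholds of the study's methods. The methods' minimum of 1 FPKM in a condition was run only as an alternative, and Hr3, with at most 0.454 FPKM in any library, would not meet it. Intervals of 95% use the residual degrees of freedom of the 8 libraries. The labels do not say that replicates came from separate crosses, so p-values measure the spread between these pools. All replicate pairs differed by more than sampling noise (chi-square per degree of freedom 8.64 to 368). The length slope was that of log2 CPM with 1 added on log2 exon length, within a library, over genes with a mean above 1 CPM. Residuals came from a linear model with genotype and this slope.

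The 10 genes, the 8 lists of related genes, the 8 marker lists and the tests were chosen with earlier results of these data known. Of 126 listed genes, 1 had no identifier in the files. Named were the 10 genes and, from 3 related lists, genes that were called or else the 2 of largest fitted change. The other 5 lists are given as counts and ranges. vri, E23, Sox14, ImpE1, Eip63F-1, MsrA, ImpL2, Cth and Eip63E were named in addition, after their values were seen.

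Same-numbered replicates were not treated as pairs, since their deviations correlated above 0.1 in 2, 1, 1 and 3 of 4 pairs. Alternatives were DESeq2 1.42.0, edgeR with DESeq2's size factors or without its count filter, a minimum of 1 FPKM, no fold threshold or 1.5, all 16 libraries in one fit, a replicate block, the length slope as covariate, and leaving out each library. Leaving out control replicates 3 and 4, or control replicate 3 with TFAM overexpression replicate 2, was added after the data were seen. The fits were also run on simulated counts, where all genes shared a common dispersion and varied independently. The differences in length slope between libraries were not imitated, so that run does not show how the fits behave with them.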

Additional observations from a re-analysis of the deposited data

Results flagged for a closer look

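No value of the 10 genes met the criterion for an outlying library within a genotype. Of 40 sets of 4 libraries (10 genes in 4 genotypes), the widest relative gap was 0.825, just under Dixon's critical value for sets of this size, for ftz-f1 in TFAM overexpression with ATF4 RNAi, where replicate 1 had 21.0 CPM and the next library 16.2 CPM. About 1 in 20 sets would pass by chance. The low control values of Hr4 (21.4 and 8.98 CPM) form a pair and so do not stand alone under this criterion.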

How the results depend on the processing

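Over 94 recomputed counts, 0 of the 10 ecdysone response genes were called under any alternative, and the lowest adjusted p of any of them was 0.122. Of 716 recomputed log2 fold changes of these genes, 654 kept their sign, 62 turned and 0 passed the threshold. The settings without a fold threshold or with 1.5 reused the main fit. Their log2 fold changes are among the 654 and could not turn, and the threshold of 1.5 could not add a call. The cause of the turns was not tested. Counts over all genes moved by more than 1.5 times in some settings. For TFAM overexpression against control (28 called), DESeq2 called 121, all 16 libraries in one fit 92, the length slope as covariate 100, the replicate block 9, leaving out control replicate 3 with TFAM overexpression replicate 2 called 33, and leaving out single libraries 17 to 26. For the libraries labelled ATF4 overexpression (72 called) these were 208, 147, 172, 21 and 29 to 131 (131 without control replicate 3), and 117 without control replicates 3 and 4. For ATF4 RNAi added to TFAM overexpression (52 called) DESeq2 gave 163, the slope 149, the replicate block 21 and single libraries 27 to 71. For TFAM overexpression with ATF4 RNAi against control (53 called) DESeq2 gave 134, all 16 libraries 94, the slope 178 and single libraries 31 to 68. The test of any difference (261 called) gave 766 with the slope and 544 by DESeq2's likelihood ratio test.

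Log2 fold changes that turned without control replicates 3 and 4 were, for TFAM overexpression, EcR -0.16, Eip74EF -0.06, Eip75B -0.12, Eip78C -0.16, Eip93F -0.13, Hr4 -0.17 and br -0.13. For the libraries labelled ATF4 overexpression they were EcR -0.06, Eip74EF -0.07, Eip75B 0.00, Eip78C -0.11, Hr4 -0.03 and ftz-f1 -0.03. For TFAM overexpression with ATF4 RNAi against control they were EcR -0.25, usp -0.06, Eip74EF -0.28, Eip75B -0.41, Eip93F -0.25 and br -0.21. With the length slope as covariate, EcR and br turned to -0.01 each for TFAM overexpression, Hr3 to -0.06 and ftz-f1 to -0.22 for the libraries labelled ATF4 overexpression, EcR to 0.01, Eip93F to 0.02, ftz-f1 to 0.10 and br to 0.06 when ATF4 RNAi was added, and EcR to -0.01 and Eip74EF to 0.00 for TFAM overexpression with ATF4 RNAi against control. With the replicate block, ftz-f1 turned to 0.00 when ATF4 RNAi was added and Hr4 to 0.04 for TFAM overexpression with ATF4 RNAi against control. The replicate block turned no other of these genes and called none of them.

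Leaving out single libraries, the ranges that crossed 0 were as follows. For TFAM overexpression they were EcR -0.01 to 0.26, br -0.01 to 0.38, Hr3 -0.19 to 0.09 and ftz-f1 -0.26 to 0.13, and for the libraries labelled ATF4 overexpression Hr3 -0.01 to 0.25 and ftz-f1 -0.16 to 0.23. When ATF4 RNAi was added they were ftz-f1 -0.14 to 0.08, br -0.22 to 0.02 and Eig71Ee -1.63 to 0.34. For TFAM overexpression with ATF4 RNAi against control they were Eip78C -0.48 to 0.02, Hr4 -0.67 to 0.12, EcR -0.10 to 0.16, usp -0.02 to 0.10, Eip74EF -0.11 to 0.23, Eip75B -0.16 to 0.26, br -0.10 to 0.29, ftz-f1 -0.27 to 0.11 and Hr3 -0.03 to 0.30. Hr3 is the member that depth limits most, at 2.10 to 4.75 CPM.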

Other observations

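After genotype means and the length slope were taken out, the genes most like each member changed in most cases, as a description over 16 libraries and 9535 genes searched. Jhbp2 was nearest to Hr4 (r = 0.991), CG9801 to Eip78C (0.988), sNPF-R to Eip75B (0.963), Drat to ftz-f1 (0.96), ct to br (0.949) and Nepl10 to EcR (0.937). For Eip78C and Eip75B these were the same genes as before. CG9801 ran from 101 to 242 CPM, and its libraries stood in the same order as those of Hr4 in 4 of 4 genotypes.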
